A study of Homo sapiens with 42 samples.

Results

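The messages described here encode the proteins of the large subunit of the cytosolic ribosome in MOLM-13 cells. The set held 48 genes, 44 canonical genes (RPL3 to RPL41 and the stalk genes RPLP0, RPLP1 and RPLP2) and the 4 paralogs RPL22L1, RPL26L1, RPL7L1 and RPL36AL, chosen by gene symbol from the 57353 gene names of the deposited count table. Each of the 48 had a row and passed the filter on low values, which kept 12939 genes (mean over the 42 libraries not under 1 count, nor under 1 CPM, the count scaled to a total of 10 to the sixth power counts per library). MOLM-13 is an established human acute myeloid leukemia (AML) line that carries FLT3-ITD, an internal tandem duplication that keeps the receptor kinase FLT3 active, and all cultures came from this single line. Cells were kept for 12 h in 1 of 7 conditions and lysed, and RNA was sequenced from the whole lysate (input) and from the heavy polysome part of a sucrose gradient, where messages that carry many ribosomes sediment. With 3 replicates per condition this gave 42 libraries. Vehicle, 3 nM quizartinib (AC220, an inhibitor of FLT3) and the combination of 3 nM quizartinib with 10 nM everolimus (an inhibitor of mTOR complex 1), called combo, were given in RPMI medium. The same 3 treatments and 10 nM everolimus alone were given in hBMSC-CM, conditioned medium of HS-5 human bone marrow stromal cells mixed with RPMI. Everolimus alone was not given in RPMI, and every sample carries the genotype label wild type.

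Each large subunit is built from ribosomal RNA and one copy of most of these proteins, with the acidic stalk proteins present in several copies. Most of their messages begin with a short run of pyrimidines, the 5′ terminal oligopyrimidine (5′TOP) motif, through which mTOR complex 1 controls how many ribosomes load on them: when the kinase is inhibited, LARP1 holds the messages out of polysomes while the transcripts themselves are kept. The paralogs are related genes whose products can take a partner's place in the ribosome or, for RPL7L1, act in precursors of the large subunit.

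Libraries held a median of 30.2 M counts (M for 10 to the sixth power), 19.4 to 37.2 M in input and 21.5 to 38.8 M in polysome RNA, and the 48 messages took 8.31% to 12.4% of input counts and 3.89% to 11.2% of polysome counts. Libraries stood apart before any test. In input RNA of hBMSC-CM vehicle the share was 8.31%, 8.73% and 12.4% in the 3 replicates, the last being replicate 3. Mitochondrially encoded genes took 7.05% to 10.2% of input counts in replicate 1 of the 6 conditions other than everolimus alone, against 3.17% to 5.35% in replicates 2 and 3 and 3.67% to 4.25% with everolimus, and the part of this in the results was not tested. The everolimus replicates were far closer to each other than those of other groups, with a median SD of log2 CPM over the 48 genes of 0.0430 in input and 0.0797 in polysome RNA against 0.168 to 0.458 elsewhere. They differed from each other by more than sampling noise (a chi-square of 4.96 to 17.1 per gene, where sampling alone gives about 1, against 30.2 to 308 in other groups) and were counted as 3. Separate libraries of 1 culture can also differ by more than sampling noise, so these values cannot tell biological from technical replicates. The p-values and the counts of replicates without overlap for everolimus alone carry this limit. The study calls its replicates biological, while the labels do not name the culture of a library, and p-values measure the spread between these samples. Of the MOLM-13 markers, CD33, FLT3, SPI1, LYZ and others were present and ANPEP was at or near 0, with a median of 0 CPM. Stromal markers summed to 0.395 to 41.9 CPM, of which COL1A1 reached 38.8, while COL3A1, LUM and POSTN had a count in none of the libraries. Their sum was 0.395 to 5.02 CPM in the vehicle libraries of both media, at most 4.90 CPM with everolimus alone and 5.58 to 41.9 CPM in the quizartinib and combo libraries of both media, and its part in the results below was not tested. Total RNA per cell was not measured by these counts, so less of a message and a different composition of the rest cannot be told apart. The study measured RNA yields separately and reported that they fell with quizartinib and with combo, more in heavy polysomes than in input. CPM are scaled per library and do not carry this fall, so polysome levels below are relative to the polysome RNA sequenced.

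The starts of messages whose behaviour is described below are shown first, to set the pyrimidine runs of the paralogs beside those of their partners. Each line gives 30 bases of RefSeq (GRCh38.p14), 10 before and 20 from the annotated transcription start, 5′ to 3′ on the strand of the gene, and capitals mark the longest run of C and T. RPL32, RPL27 and RPL12 had large polysome changes with quizartinib in RPMI and RPL39 the largest difference between the media; RPL27 is shown as a canonical message without the motif searched for. Each paralog follows its canonical partner where that partner was in the table.
RPL32 (chr3:12841546-12841575, minus strand): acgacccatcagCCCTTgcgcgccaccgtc
RPL27 (chr17:42998409-42998438, plus strand): gtgaaaggttagcggaagtgTCCTTCTTTC
RPL12 (chr9:127451387-127451416, minus strand): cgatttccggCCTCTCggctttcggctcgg
RPL39 (chrX:119791611-119791640, minus strand): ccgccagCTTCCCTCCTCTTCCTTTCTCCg
RPL22 (chr1:6199576-6199605, minus strand): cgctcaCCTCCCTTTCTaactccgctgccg
RPL22L1 (chr3:170870176-170870205, minus strand): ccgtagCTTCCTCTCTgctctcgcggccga
RPL26 (chr17:8383174-8383203, minus strand): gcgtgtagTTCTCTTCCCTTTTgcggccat
RPL26L1 (chr5:172958719-172958748, plus strand): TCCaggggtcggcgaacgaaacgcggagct
RPL36A (chrX:101391001-101391030, plus strand): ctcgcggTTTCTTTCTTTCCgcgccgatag
RPL36AL (chr14:49620607-49620636, minus strand): TCTTCCCTTTCCTgttaggcgagagctgcg
RPL7L1 (chr6:42879606-42879635, plus strand): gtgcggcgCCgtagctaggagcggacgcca

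A start was found for 41 of the 48 members (RPL5, RPL7, RPL8, RPL23, RPL23A, RPL30 and RPL37 had no entry). A TOP-like motif, here a C within 5 bases of the annotated start that is followed by at least 4 bases that are C or T, searched on the sense strand only, was present in 32 of the 41 (78.0%). It was present in 30 of 37 canonical genes (81.1%) and in RPL22L1 and RPL36AL, and was not found in RPL26L1 and RPL7L1. Of all 27303 promoters with an entry, 21.1% held it, and among the 8942 genes tested here that had an entry 22.7% did. The longest pyrimidine run had a median of 11 bases in the members and 4 bases over all promoters. A match describes these letters at an annotated start; which start the cells used was not measured.

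In input RNA of RPMI vehicle, the level per kb of transcript ran over more than 2 orders of magnitude among the members. RPL8, a protein that sits at the peptidyl transferase center, was highest with 5905, 6053 and 8165 CPM in replicates 1, 2 and 3, which is 6951 CPM per kb of transcript. RPL13 and RPL13A followed, with 5441 and 5047 CPM per kb. The lowest were RPL17, which lines the peptide exit tunnel, with 15.7 CPM per kb, RPL22L1 with 35.9 and RPL22 with 51.5. Per kb of coding sequence, a scale chosen after the data were seen because annotated transcripts of some members are very long, RPL13A ranked first, RPL41, the shortest of these proteins, came next and then RPL8, and RPL22, RPL22L1 and RPL17 still ranked 44, 46 and 48 of 48. The low level of RPL17 has a measured limit. Rows of RPL17 pseudogenes held 87.3% of the counts of RPL17 and its pseudogenes together, so that its own row had 272 to 435 counts in these libraries, and the gene also shares exons with a readthrough gene. The same share was 35.0% for RPL26 and 32.1% for RPL22, and 16.6% or less for the others. It covers only reads that were counted to a row, and how reads that match several copies were treated is not stated. RPL21 has 133 annotated pseudogenes and RPL23A has 91, and the part of such reads in the levels was not tested. In all, 706 rows of the table were pseudogenes named after 44 of the members. Exons of 20 members, RPL22 and RPL26 among them, overlap an exon of another gene on the same strand. For 16 members an exon overlaps one on the opposite strand. The part of these overlaps in the levels was not tested.

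The share of input counts taken by the 48 messages was 8.88% to 10.2% in RPMI vehicle and 10.1% to 11.8% with quizartinib. With combo in RPMI it was 10.7% to 11.7%, above all RPMI vehicle libraries. In hBMSC-CM every drug library lay within the vehicle range of 8.31% to 12.4%. The share of polysome counts was far lower under quizartinib in RPMI. In polysome RNA of RPMI vehicle the share was 8.26% to 11.2%, and it was 3.89% to 5.09% with quizartinib and 3.95% to 4.58% with combo. In hBMSC-CM it was 6.92% to 10.5% with vehicle, 5.26% to 8.21% with quizartinib, 6.60% to 7.08% with everolimus and 4.42% to 4.55% with combo. The quizartinib and combo libraries in RPMI did not overlap with any vehicle library, and the quizartinib libraries in hBMSC-CM lay above all quizartinib libraries in RPMI and overlapped with hBMSC-CM vehicle.

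**Figure D1:**
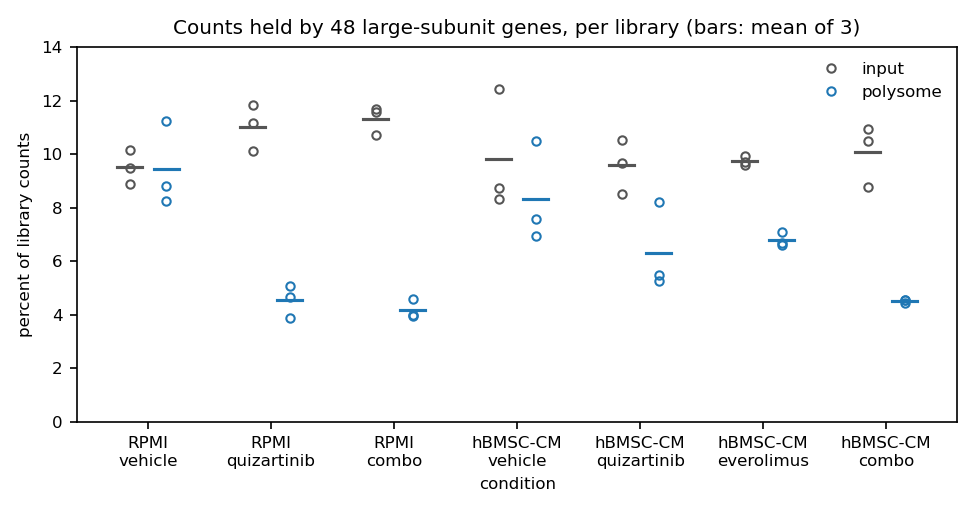
Percent of a library's counts in the 48 large subunit messages (vertical axis) for each of the 42 libraries by condition, with input and polysome libraries shown as separate points. Input libraries sit between 8.31% and 12.4% in every condition, whereas polysome libraries sit between 3.89% and 5.09% with quizartinib in RPMI and between 8.26% and 11.2% with RPMI vehicle.

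Without drug in RPMI the messages differed widely in how far they were represented in heavy polysomes. Of the 48, 16 were higher in polysome than in input RNA and 8 were lower (edgeR quasi-likelihood test, Benjamini-Hochberg adjusted p under 0.05; over all genes tested 65.4% were called, 31.5% higher and 33.9% lower), with a median log2 difference of 0.27 against −0.06 for all genes. RPL8 was highest, with log2 polysome minus input of 1.58, 1.51 and 0.93 in the 3 replicates. RPL10, which joins the subunit late in its maturation, gave 1.04, 1.14 and 1.07, and RPL10A, a protein of the L1 stalk, had a fitted log2 difference of 1.02 (adjusted p = 5.81e-06). At the other end RPL17 had −1.85, −1.39 and −1.75, and the fitted values of RPL6 and RPL41 were −0.98 and −0.86. RPL41 has only 75 coding bases, and whether its heavy polysome reads reflect ribosomes on its own message was not tested. The order among canonical genes followed coding length loosely. Over the 44 canonical genes Pearson's r between log2 coding length and polysome minus input was 0.32 in RPMI vehicle and up to 0.54 in RPMI combo, a description across genes that share libraries. The 11 shortest (75 to 351 coding bases) had a median of 0.02 and the 11 longest (642 to 1281) a median of 0.85 in RPMI vehicle.

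In the drug conditions more members were lower than higher in polysome RNA. With quizartinib in RPMI no member was higher in polysome RNA and 42 were lower (57.9% of all genes were called, 31.2% higher and 26.7% lower), with combo in RPMI none was higher and 43 were lower (59.3%, 31.7% and 27.6%), and the medians were −1.31 and −1.52. In hBMSC-CM 9 were higher and 11 lower with vehicle (63.6% of all genes called, 29.6% higher and 34.0% lower), 3 higher and 18 lower with quizartinib (58.7%, 29.7% and 28.9%), and 1 higher and 39 lower with combo (63.0%, 32.9% and 30.1%). With everolimus alone 2 were higher and 18 lower (58.6% of all genes called, 27.9% higher and 30.7% lower). Leaving out any of the 3 everolimus replicates brought the 20 calls to 12 or 13, and a fit on the everolimus libraries alone gave 44. The share of all genes called in those fits is not given, so the 44 is not read as a result about the members. Replicate values of the fractions did not overlap there for 46 members (95.8%) and for 82.0% of all genes. Medians in hBMSC-CM were −0.11 with vehicle, the same as over all genes, −0.39 with quizartinib, −0.38 with everolimus and −1.04 with combo. Without replicate 3 of hBMSC-CM vehicle, 9 members were higher and 7 lower in that condition, and the median was −0.02. Replicates within a condition differed, and the median over the members was −0.11, 0.38 and 0.33 in RPMI vehicle, −1.30, −1.32 and −1.30 in RPMI quizartinib and −0.34, 0.18 and −0.21 in hBMSC-CM vehicle. In hBMSC-CM quizartinib it was −0.77, −0.34 and −0.22, replicate 1 being the lowest.

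**Figure D2:**
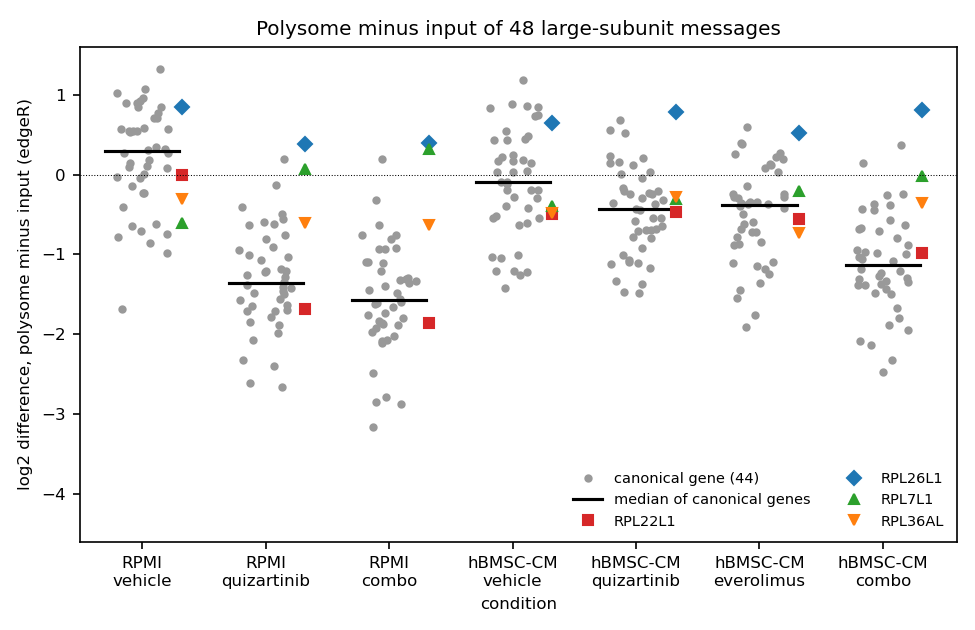
Log2 polysome minus input (fitted difference) of the 48 messages in each of the 7 conditions, with 1 grey point per canonical gene, a line at the median of these 44 and the paralogs in colour. The line is at 0.29 in RPMI vehicle, −1.36 in RPMI quizartinib and −1.58 in RPMI combo, and RPL26L1 is the paralog that stays above 0 in every condition.

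The first question was how FLT3 inhibition changed the polysome representation of these messages, taken as the change in polysome RNA minus the change in input RNA (the interaction with the fraction). Quizartinib in RPMI lowered it for 34 of the 48 members and raised it for none (edgeR, adjusted p under 0.05; 1.28% of all genes were lower and 1.55% were called in either direction). The members' median was −1.55 on the log2 scale against 0.15 for all genes, and the 34 were among 165 genes called lower in all. Values of the 3 vehicle and the 3 quizartinib replicates did not overlap for 42 members that were lower (6.48% of all genes) and 46 members were lower in 3 of 3 same-numbered pairs (17.4% of all genes). limma voom called 32 lower (1.33% of all genes) and DESeq2 39 (2.6%), and 44 were lower at an unadjusted p under 0.05 (4.73% of all genes). Without replicate 3 of RPMI vehicle 22 were called. The scaling moved the median of all genes, from 0.15 with TMM factors to 0.0063 with RLE factors, under which the members' median was −1.69 and 38 were called. The share of all genes called is not given for that fit or for the fit without replicate 3.

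The largest fall was in RPL37, a zinc-binding protein, which lies at chr5:40825262-40835222 (GRCh38, minus strand). Its polysome level was 1187, 1264 and 1905 CPM in RPMI vehicle and 406, 257 and 384 CPM with quizartinib, while its input level was 1577, 1328 and 1530.3 CPM before and 2002, 1590 and 1941 CPM after. Polysome and input thus moved apart in every replicate, with a log2 change of −2.38 (SE 0.36, adjusted p = 0.000233). RPL32 gave 1809, 1847 and 2987 CPM in polysomes of RPMI vehicle and 609, 339 and 647 CPM with quizartinib, and a relative change of −2.14 (SE 0.41, adjusted p = 0.00214). RPL27 had the same change with a smaller error (−2.14, SE 0.30, adjusted p = 9.55e-05). For RPL37 and RPL32 the lowest polysome value of the vehicle group lay above 2 times the highest of the quizartinib group. RPL15 changed less (−1.52, SE 0.21) with an adjusted p of 9.55e-05. Its polysome level was 3247, 3276 and 3123 CPM with vehicle and 1159, 1063 and 1184 CPM with quizartinib, and the groups did not overlap.

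The proteins of the stalk, which recruits the translation GTPases, behaved alike in direction. RPL12 at its base fell by 2.09 (SE 0.44, adjusted p = 0.00665), and its polysome level was 1980, 1564 and 2916 CPM with vehicle and 850, 345 and 815 CPM with quizartinib. RPLP2 fell by 1.93 (adjusted p = 0.026) and RPLP0 by 1.26 (adjusted p = 0.0207). RPLP1 had −1.56 with an adjusted p of 0.0876, and an adjusted p of 0.00358 when the replicate number was a block. RPL5 and RPL11, which join 5S ribosomal RNA in a particle that also binds the p53 regulator MDM2, had changes of −0.80 (adjusted p = 0.243, 0.0466 with the replicate block) and −1.36 (adjusted p = 0.0301). Differences between members were not tested.

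Members with smaller values included 14 that did not pass. RPL3, which reaches into the peptidyl transferase center, had 9268, 8992 and 8167 CPM in polysomes of RPMI vehicle and 5564, 6799 and 4839 CPM with quizartinib, with a relative change of −0.76 (adjusted p = 0.0876). RPL22 and RPL41 had −0.72 (adjusted p = 0.303) and −0.63 (adjusted p = 0.25). The limit given above for the short RPL41 message holds here as well. RPL7 had −1.07 (adjusted p = 0.0631, 0.0296 with the replicate block). RPL8, which did pass (−1.46, adjusted p = 0.00269), went from 17674, 17204 and 15540.0 CPM in polysome RNA to 5539, 4836 and 5967 CPM, and its log2 polysome minus input under quizartinib was −0.11, −0.11 and −0.16. With the replicate number as a block 40 members were called instead of 34. The share of all genes called in that fit is not given, so the rise is not read as a result about the members.

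**Figure D3:**
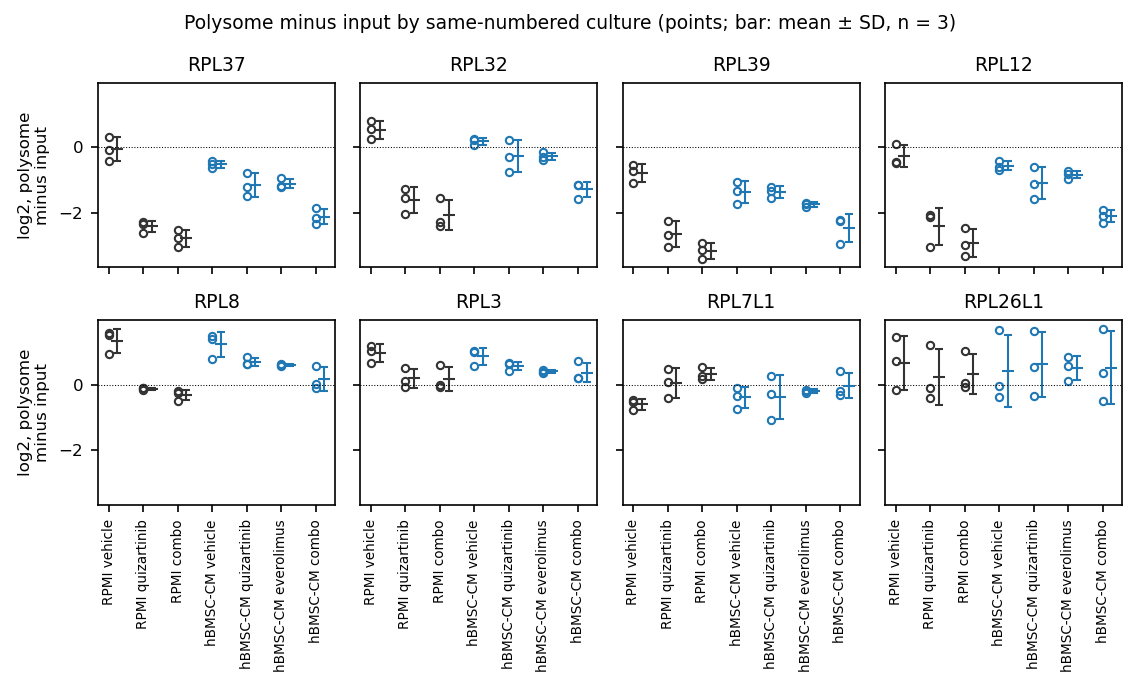
Log2 polysome minus input per replicate (points) in the 7 conditions for RPL37, RPL32, RPL39, RPL12, RPL8, RPL3, RPL7L1 and RPL26L1. RPL37 goes from −0.41, −0.07 and 0.32 in RPMI vehicle to −2.30, −2.63 and −2.34 in RPMI quizartinib, whereas RPL7L1 goes from −0.79, −0.53 and −0.49 to −0.43, 0.07 and 0.49.

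The canonical genes were also described by the TOP-like motif. In RPMI the quizartinib change had a median of −1.61 over the 30 canonical genes with the motif and of −1.71 over the 7 without it (RPL6, RPL9, RPL10, RPL13, RPL15, RPL17 and RPL27), and the ranges overlapped. By coding length the 11 shortest canonical genes had a median change of −1.72 and the 11 longest of −1.07. The motif split depends on the start taken. For RPL13 and RPL15 the 30-base window ended before the first base of the gene in GENCODE. For RPL6, RPL10, RPL17 and RPL27 it began downstream of that base, as it did for some genes with the motif, such as RPL3. No test was made of either split.

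In hBMSC-CM the same dose of quizartinib changed the polysome representation less, and no member passed. The median over the members was −0.39 against 0.10 for all genes, and 41 of 48 values were negative. edgeR, limma voom and DESeq2 called 0 members (0.0% of all genes with edgeR), and 6 were lower at an unadjusted p under 0.05 (0.456% of all genes). The largest values were those of RPL27 (−0.68, unadjusted p = 0.0263, adjusted p = 1) and RPL15 (−0.65, unadjusted p = 0.00327, adjusted p = 1). RPL15 had 2568, 2651 and 2990 CPM in polysomes of hBMSC-CM vehicle and 1579, 1530.0 and 2033 CPM with quizartinib, so that the groups did not overlap. Replicates did not overlap for 12 members, all lower (1.52% of all genes were lower without overlap).

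The difference between the media in the quizartinib effect was tested directly. It had a median of 1.25 over the members, more positive in hBMSC-CM, against −0.04 for all genes, and it was positive in 47 of 48. edgeR called 0 members (0.0% of all genes, lowest adjusted p 0.525 in RPL39), limma voom called 0, and 34 were positive at an unadjusted p under 0.05 (2.91% of all genes). DESeq2, which gave an adjusted p to only 647 genes with 41 members among them, called 9 members (2.01% of the 647 were called, all more positive). RPL39, which lines the exit tunnel, had the largest difference, 1.88 (SE 0.40, unadjusted p = 4.06e-05). Its polysome level was 213, 299 and 278 CPM in RPMI vehicle and 116, 58.9 and 86.3 CPM in RPMI quizartinib, and 159, 194 and 208 CPM in hBMSC-CM vehicle and 174, 177 and 159 CPM in hBMSC-CM quizartinib. Polysome levels of RPL39 thus fell in every RPMI pair, and in hBMSC-CM the drug and vehicle values overlapped. The same-numbered changes of the 2 media did not overlap, more positive in hBMSC-CM, for 41 members (10.1% of all genes).

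Set against each other under quizartinib, hBMSC-CM and RPMI differed by a median of 0.87 in polysome relative to input, against −0.09 for all genes. edgeR called 0 members (0.0% of all genes) and limma voom 0, and 30 members were higher in hBMSC-CM at an unadjusted p under 0.05 (2.22% of all genes). DESeq2 called 13 of the 41 members to which it gave an adjusted p (3.09% of 647 genes). RPL32 had 1.37 (unadjusted p = 0.00189, adjusted p = 0.8), RPL12 1.32 and RPL37 1.30. Polysome levels of RPL32 were 827, 910 and 1715 CPM in hBMSC-CM quizartinib and 609, 339 and 647 CPM in RPMI quizartinib, which did not overlap. Replicates did not overlap, higher in hBMSC-CM, for 35 members (3.37% of all genes) and 45 were higher in 3 of 3 same-numbered pairs (15.2% of all genes). RPL7L1 was the only member of the opposite sign (−0.38, adjusted p = 1). Without drug the 2 media differed in the other direction, with a median of −0.33 over the members and −0.03 over all genes. There edgeR, limma voom and DESeq2 each called 0 members (0.0% of all genes with edgeR), 1 was lower in hBMSC-CM at an unadjusted p under 0.05 (RPL39, −0.64, unadjusted p = 0.0302, adjusted p = 1; 1.08% of all genes were lower by this rule). In 3 of 3 same-numbered pairs 35 members were lower (19.0% of all genes), and the median was −0.19 without replicate 3 of hBMSC-CM vehicle. The 2 comparisons under quizartinib and the difference of effects share the quizartinib libraries.

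Everolimus and its combination with quizartinib asked how far inhibition of mTOR adds to this. Everolimus alone in hBMSC-CM gave a median of −0.42 over the members, against 0.01 for all genes, and 44 of 48 values were negative. edgeR, limma voom and DESeq2 called 0 (0.0% of all genes with edgeR) and 6 were lower at an unadjusted p under 0.05 (2.34% of all genes). RPL29 had the most negative value (−1.01, unadjusted p = 0.065, adjusted p = 1) and RPL13A, RPL15 and RPL9 were among the 6 (−0.77, −0.64 and −0.64, adjusted p = 1 for each). Replicates did not overlap, lower with everolimus, for 26 members (8.89% of all genes), and the small spread of the everolimus libraries bears on this count.

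Adding everolimus to quizartinib in hBMSC-CM gave a median of −0.63 over the members and 0.05 over all genes, with 46 of 48 values negative. All 3 tools called 0 (0.0% of all genes with edgeR) and 18 members were lower at an unadjusted p under 0.05 (1.51% of all genes). RPL39 had −1.10 (SE 0.28, unadjusted p = 0.000445, adjusted p = 1), and its polysome level was 174, 177 and 159 CPM with quizartinib and 104, 82.4 and 67.6 CPM with combo. RPL21, RPL32, RPL12 and RPL37 followed with −1.10, −1.09, −1.08 and −1.03. Every combo value of RPL39 lay below every quizartinib value, and replicates did not overlap, lower with combo, for 20 members (2.18% of all genes). In RPMI the added everolimus gave a median of −0.21, no member at an unadjusted p under 0.05 and 0 calls by edgeR, limma voom and DESeq2 (0.0% of all genes with edgeR). There 27 members were lower in 3 of 3 same-numbered pairs (9.86% of all genes), and RPL17 (0.76) and RPL7L1 (0.25) were higher in 3 of 3.

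**Figure D4:**
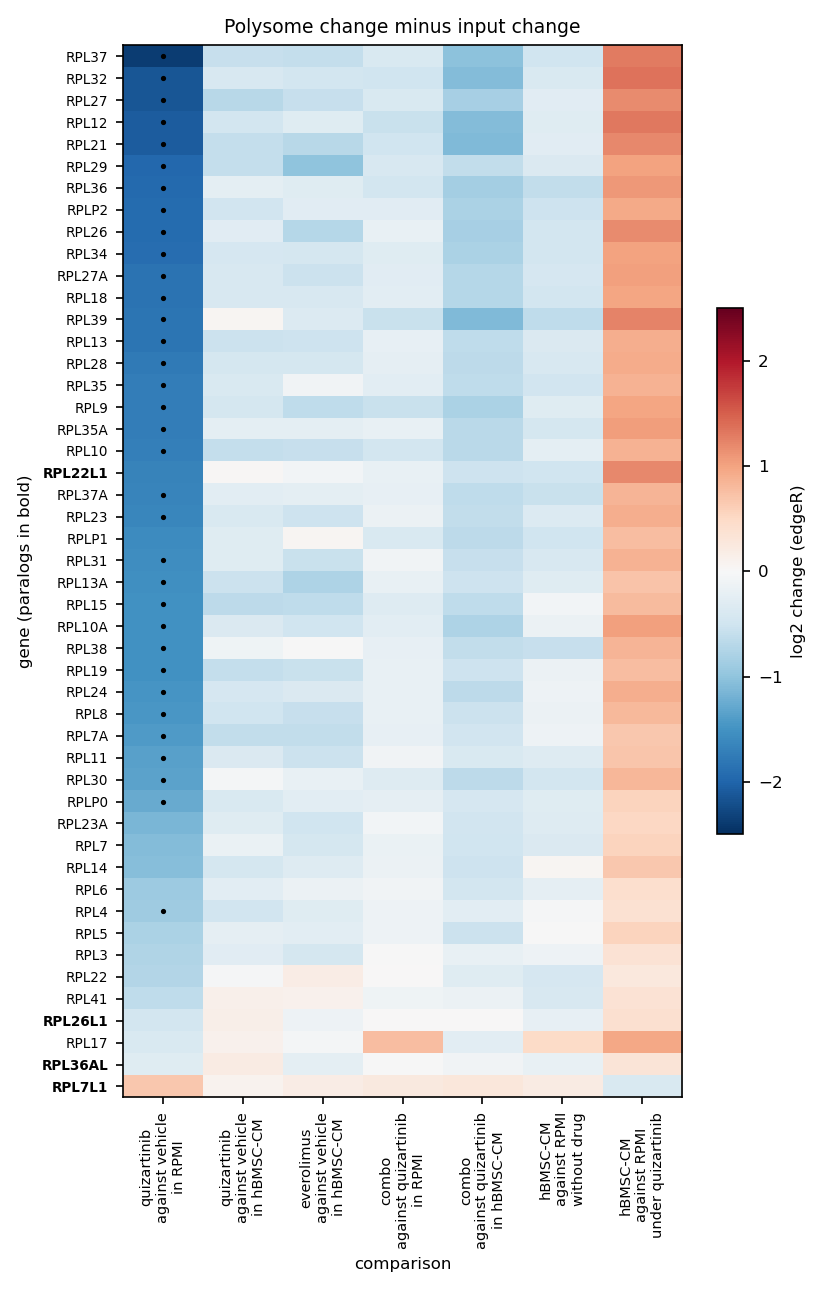
Heat map of the log2 change in polysome relative to input for the 48 messages (rows) in the comparisons of drug, combination and medium (columns), with a black dot where the edgeR adjusted p was under 0.05. The 34 dots are all in the column of quizartinib against vehicle in RPMI, and the column of hBMSC-CM against RPMI under quizartinib is positive in 47 of 48 rows.

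Of the input changes few passed, and RPL22L1 and RPL7L1 were among them. Quizartinib in RPMI lowered 3 members and raised none (34.6% of all genes were called, 16.6% higher and 18.0% lower), with a median of 0.14 over the members. RPL7L1 had a log2 change of −1.25 (SE 0.19, adjusted p = 3.66e-06), RPL22L1 −1.91 (SE 0.35, adjusted p = 3.9e-05) and RPL17 −2.09 (adjusted p = 0.000117). The fall of RPL17 rests on its own few counts: with the counts of its pseudogene rows added it was −0.06 (adjusted p = 0.913). RPL36A, the partner of RPL36AL and itself no member, had −1.35 (adjusted p = 0.0633, 0.0232 with the replicate block) with a mean input level of 3.53 CPM with vehicle.

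In hBMSC-CM quizartinib lowered 1 member, RPL22L1 (−1.15, SE 0.34, adjusted p = 0.0214; 12.3% of all genes were called, 5.46% higher and 6.84% lower). With the replicate block, limma voom or DESeq2, 2 members were called, RPL17 being the other (15.2% of all genes with limma voom and 15.9% with DESeq2). The call was lost without replicate 3 of hBMSC-CM vehicle (−0.62, adjusted p = 0.285), without replicate 1 of hBMSC-CM quizartinib (−1.08, adjusted p = 0.0794) and without its replicate 2 (−0.94, adjusted p = 0.132). In the input comparisons of everolimus against vehicle, combo against quizartinib in either medium and hBMSC-CM against RPMI without drug, edgeR, limma voom and DESeq2 called 0 members and none had an unadjusted p under 0.05 (0.41%, 0.00773% in RPMI, 0.24% in hBMSC-CM and 1.51% of all genes were called). For hBMSC-CM against RPMI under quizartinib edgeR and limma voom called 0 and DESeq2 called 1 (9.83% of all genes), and 3 members had an unadjusted p under 0.05 (18.3% of all genes), where edgeR called 8.16% of all genes, 6.11% higher and 2.05% lower. The members' median was −0.26, and 41 of the 48 were lower in hBMSC-CM in 3 of 3 same-numbered pairs (33.5% of all genes). With the replicate block RPL22L1 (0.76, adjusted p = 0.0272) and RPL7L1 (0.55, adjusted p = 0.0405) were higher in hBMSC-CM. The direct difference between the media in the quizartinib effect on input was 0.83 for RPL7L1 (SE 0.27, adjusted p = 0.135) and 0.76 for RPL22L1 (adjusted p = 0.694), and edgeR, limma voom and DESeq2 called 0 members, with 1 at an unadjusted p under 0.05 (9.99% of all genes; 1.96% were called by edgeR). Leaving out replicate 3 of hBMSC-CM vehicle moved the members' median from −0.14 to 0.11 for quizartinib in hBMSC-CM, from −0.12 to 0.17 for everolimus and from 0.01 to −0.23 for hBMSC-CM against RPMI without drug.

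**Figure D5:**
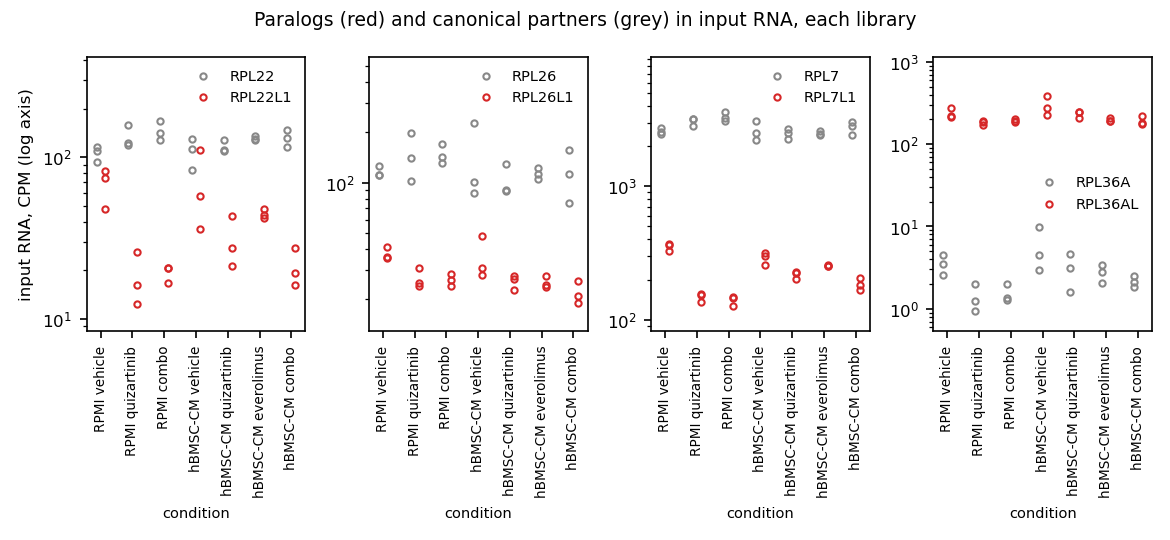
Input level in CPM (log scale) of the 4 paralogs and their canonical partners in each replicate (points) of the 7 conditions. RPL22L1 is 48.1 to 82.3 CPM in RPMI vehicle and 12.4 to 25.9 CPM in RPMI quizartinib, while RPL22 is 93.4 to 115 CPM and 119 to 158 CPM.

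Of the paralogs, RPL22L1 (chr3:170864875-170870208, minus strand) differed most from its partner in the quizartinib effect on input. Its input level was 82.3, 48.1 and 74.6 CPM in RPMI vehicle, 16.1, 12.4 and 25.9 CPM with quizartinib and 20.5, 16.5 and 20.7 CPM with combo. In hBMSC-CM it was 57.6, 35.9 and 111 CPM with vehicle, 27.2, 21.1 and 43.5 CPM with quizartinib, 44.1, 41.8 and 47.6 CPM with everolimus and 19.1, 16.3 and 27.5 CPM with combo. The quizartinib libraries in RPMI lay below all vehicle libraries, and those in hBMSC-CM overlapped with hBMSC-CM vehicle. RPL22, which is dispensable for the ribosome itself, had 110.0, 93.4 and 115 CPM in RPMI vehicle and 158, 119 and 122 CPM with quizartinib. The quizartinib effect on RPL22L1 minus that on RPL22 was −1.72 over both media (−2.26 in RPMI and −1.18 in hBMSC-CM), negative in 6 of 6 same-numbered pairs, with a two-sided exact permutation p of 0.005, the smallest that this design allows. Adjusted over the 24 paralog tests made, this was 0.0894, and no paralog test had an adjusted p under 0.05. Without replicate 3 of hBMSC-CM vehicle 6 of the 24 did, RPL22L1 against RPL22 among them (−1.58, exact permutation, adjusted p = 0.045). In polysome relative to input RPL22L1 had −1.67 with quizartinib in RPMI (adjusted p = 0.0684), and with the replicate block the adjusted p fell to 0.00229.

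RPL7L1 (chr6:42879616-42889925, plus strand) was lower with quizartinib in RPMI in both fractions. Its input level was 366, 367 and 328 CPM in RPMI vehicle and 155, 156 and 135 CPM with quizartinib, and its polysome level was 211, 254 and 234 CPM and 115, 164 and 190.3 CPM. Input levels fell in all 3 pairs and by more than polysome levels, so that polysome minus input rose from −0.79, −0.53 and −0.49 to −0.43, 0.07 and 0.49. This change was 0.68 (SE 0.27, unadjusted p = 0.0171, adjusted p = 0.206), and it was the only positive value among the 48 members in that comparison. RPL7, a protein near 5S ribosomal RNA, had input levels of 2757, 2550.3 and 2475 CPM with vehicle and 3223, 2821 and 3176 CPM with quizartinib. The quizartinib effect on input was lower for RPL7L1 than for RPL7 by a log2 difference of −0.93 (exact permutation p = 0.015, negative in 6 of 6 pairs, adjusted p = 0.0894), and by −1.04 without replicate 3 of hBMSC-CM vehicle (adjusted p = 0.04). By medium the −0.93 was −1.49 in RPMI and −0.37 in hBMSC-CM. In polysome minus input the difference was 0.88 for quizartinib (exact permutation p = 0.08, positive in 5 of 6 pairs, adjusted p = 0.148), from 1.65 in RPMI and 0.10 in hBMSC-CM. For everolimus it was 0.62 (exact permutation p = 0.0325, positive in 8 of 9, adjusted p = 0.0894), and 0.74 without replicate 3 of hBMSC-CM vehicle (adjusted p = 0.045). Libraries of everolimus alone and vehicle with the same number did not deviate together, so their pairs among the 9 were matched by number only.

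RPL26L1 (chr5:172958729-172969771, plus strand) encodes a protein of the same length as RPL26 (145 residues). Its fitted polysome minus input stayed above 0 in all 7 conditions, from 0.39 in RPMI quizartinib to 0.85 in RPMI vehicle, with no call in any of them by edgeR as fitted here. DESeq2 called it in RPMI vehicle (0.99, adjusted p = 0.0481). Without a filter on low counts edgeR called it in RPMI vehicle, hBMSC-CM vehicle, hBMSC-CM quizartinib and hBMSC-CM combo (adjusted p 0.00306 to 0.0254), and a fit on the everolimus libraries alone called it there (adjusted p = 0.00121). Its replicates disagreed: in RPMI vehicle the polysome level was 31.8, 112 and 57.7 CPM, and in RPMI quizartinib 18.2, 57.7 and 28.8 CPM, and replicate 2 was the highest in 6 of 7 conditions. RPL26, a protein at the tunnel exit, had 42.8, 90.2 and 75.4 CPM and then 20.1, 22.7 and 26.6 CPM in the same libraries, and its relative change was −1.92 (SE 0.50, adjusted p = 0.0383; 0.0511 with pseudogene counts added and 0.0526 with limma voom). The quizartinib effect on polysome minus input was more positive for RPL26L1 by 1.00 (1.38 in RPMI and 0.62 in hBMSC-CM, exact permutation p = 0.02, positive in 6 of 6 pairs, adjusted p = 0.0894). The everolimus effect was more positive by 0.60 (exact permutation p = 0.0208, positive in 9 of 9, adjusted p = 0.0894). Among the 9, the pairs of everolimus alone and vehicle were matched by number only, as those libraries did not deviate together.

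RPL36AL (chr14:49618530-49620626, minus strand) is nearly identical in protein to RPL36A, and in these libraries its row held more counts. Input levels in RPMI vehicle were 217, 276 and 215 CPM for RPL36AL and 3.53 ± 0.969 CPM (SD, n = 3) for RPL36A, whose gene shares exons with a readthrough gene. RPL36A also has 52 annotated pseudogenes. Counts in rows of these were not summed, so which copy was the more abundant message cannot be told. RPL36AL was 171, 193 and 188 CPM with quizartinib, which did not overlap with vehicle (log2 change −0.36, adjusted p = 0.67). Its polysome level was 68.0, 362 and 143 CPM in RPMI vehicle, with replicate 2 highest there and in 5 of the other 6 conditions. Polysome counts of RPL36A were as low as 1 per library, so no polysome comparison of the pair is given beyond its value: −0.84 for quizartinib (exact permutation p = 0.285, adjusted p = 0.36).

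Genes of the same pathway outside the set were taken from lists written by hand. With quizartinib in RPMI, 26 of 33 small subunit genes were lower in polysome relative to input and none was higher (1.28% and 0.278% of all genes). Their median was −1.57, next to −1.55 for the large subunit members. Of 22 other 5′TOP genes, such as translation factors, 1 was lower and none was higher, with a median of −0.46. In hBMSC-CM with quizartinib, edgeR, limma voom and DESeq2 called 0 genes of either list, with 1 small subunit gene and 0 other 5′TOP genes lower at an unadjusted p under 0.05 (0.456% of all genes) and medians of −0.38 and −0.07. The difference between the media in the quizartinib effect had a median of 1.27 over the small subunit genes (0 called by edgeR, 26 positive at an unadjusted p under 0.05 against 2.91% of all genes, and 4 by DESeq2) and 0.22 over the other 5′TOP genes.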

How the data were processed

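Gene counts of 42 poly(A)-selected libraries were used as deposited. Per the labels and the study's methods the authors trimmed paired reads with BBDuk, aligned them with STAR 2.6.0a to hg38 (Ensembl release 96) and counted reads per gene, and use of strand is not stated. The 58884 rows were summed by gene name to 57353 names, and 0 columns of samples were left unused. All 42 libraries entered 1 edgeR 4.0.16 quasi-likelihood fit (R 4.3.3, robust, 14 group means, TMM factors, no block, common biological coefficient of variation 0.279) of 12939 genes, which held 99.8% of counts. p-values were adjusted over all genes tested. Polysome changes were taken as the interaction with the fraction. CPM are TMM-scaled, and log2 CPM used a prior count of 2. limma voom (limma 3.58.1), DESeq2 1.42.0, RLE factors, no filter, a fit of the compared groups alone, a block for the replicate number or for each culture, added pseudogene counts and each culture left out in turn were the alternatives. Same-numbered libraries of 1 fraction deviated together in every pair of conditions compared (lowest correlation 0.156) except everolimus against vehicle (lowest −0.0898), and input and polysome libraries of 1 number did so in 3 of 7 conditions. Paralog and partner were compared by two-sided exact permutation within each stratum. Transcript and coding lengths and positions came from GENCODE release 44 on GRCh38, and the shortest transcript with the canonical coding sequence was used. Members, lists, tests and the rule for named genes (paralogs and partners, stalk and 5S genes, the 3 highest and lowest levels and polysome differences, and the 2 largest called changes of each sign) were chosen with earlier results of these data known. RPL15, RPL39 and other members that did not pass, or fell outside these numbers, were named after their values were seen. The test was checked on simulated counts.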

Additional observations from a re-analysis of the deposited data

Results flagged for a closer look

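RPL38, a small protein at the surface of the large subunit, was picked out because its input level moved in opposite directions with quizartinib in the 2 media in every same-numbered pair. The log2 change was 0.21 in RPMI, higher in 3 of 3 pairs, and −0.28 in hBMSC-CM, lower in 3 of 3 pairs. Neither change was called, and the interaction term of the edgeR fit gave a difference of −0.49 (SE 0.33, unadjusted p = 0.151, adjusted p = 0.752).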

How the results depend on the processing

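Under the alternatives other than leaving out a culture, 163 counts of members called stayed within 1.5 times the reported count and 13 moved. A count of 0 in both fits was taken as unchanged. For medians 171 stayed within the spread between replicates and 5 moved. With 1 culture left out, 122 counts stayed and 7 moved, and 119 medians stayed and 10 moved. Except for limma voom and DESeq2, the share of all genes called under an alternative is not given. A moved count is therefore not read as a result about the members. The replicate block changed the number of members called by more than 1.5 times only for input under quizartinib in hBMSC-CM (2 instead of 1, also 2 with limma voom and with DESeq2) and for input of hBMSC-CM against RPMI under quizartinib (2 instead of 0; 1 with DESeq2). With only the groups compared, 13 members were called between fractions in hBMSC-CM vehicle, 13 in hBMSC-CM quizartinib and 44 in hBMSC-CM everolimus, 5 in input for quizartinib in RPMI, 1 in input for hBMSC-CM against RPMI under quizartinib and 1 (RPL7L1) for the difference between media in input. DESeq2 called 13 members for hBMSC-CM against RPMI under quizartinib and 9 for the difference between media, both in polysome relative to input and with an adjusted p for 647 genes only, where edgeR called 0. The median between fractions in RPMI quizartinib was −1.36 without a filter, −1.35 with pseudogene counts and −1.37 with only the groups compared, and that in hBMSC-CM everolimus was −0.28 without a filter. The median change with quizartinib in RPMI, polysome relative to input, was −1.77 with only the groups compared.

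Small medians in input, where few members were called, changed sign when a culture was left out (quizartinib in hBMSC-CM from −0.14 to 0.11 and everolimus from −0.12 to 0.17, both without replicate 3 of hBMSC-CM vehicle). Leaving out each culture in turn gave 22 to 33 members called for quizartinib in RPMI, polysome relative to input, 12 to 13 between fractions in hBMSC-CM everolimus, and 0 to 1 in input for quizartinib in hBMSC-CM. Medians ran from −1.52 to −1.31 between fractions in RPMI quizartinib and, in input, from 0.050 to 0.21 for quizartinib in RPMI, −0.057 to 0.11 for combo in RPMI, −0.037 to 0.16 for combo in hBMSC-CM, −0.33 to −0.14 for hBMSC-CM against RPMI under quizartinib and −0.39 to 0.0043 for the difference between media. Paralog minus partner in input ran from −1.89 to −1.58 for RPL22L1, −0.55 to −0.38 for RPL26L1 and −1.04 to −0.87 for RPL7L1 with quizartinib, and for RPL7L1 from −0.32 to −0.20 with everolimus and 0.36 to 0.49 with hBMSC-CM. In polysome minus input it ran from 0.48 to 0.76 for RPL7L1 with everolimus. These 6 passed the threshold only without replicate 3 of hBMSC-CM vehicle. The causes were not tested. RPL17 and RPL36A had the fewest counts, which limits their values most.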
